A study of Mus musculus with 2 samples.

Results

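To describe the glucocorticoid response genes of C3H10 adipocytes upon MALAT1 depletion, 10 genes were taken by symbol from a table of 46095 genes. They were the glucocorticoid receptor Nr3c1, the steroid-activating enzyme Hsd11b1, and 8 genes known as targets of the receptor, namely Fkbp5, Tsc22d3, Per1, Zbtb16, Sgk1, Dusp1, Mt1 and Mt2. All 10 were present in the table and all 10 passed the filter of at least 10 counts summed over both libraries. C3H10, named C3H/10T1/2 in the study, is a mouse mesenchymal line that forms adipocytes in culture. The labels give its strain as C57BL/6, a strain that the study does not state. They call the cells fibroblast precursors with adipogenic ability. RNA-seq was performed on 1 library of cells transfected with a MALAT1 ASO and 1 library of cells transfected with a negative control ASO (NC), an ASO being a short antisense strand that leads to cleavage of the RNA it pairs with. The labels do not say which of the MALAT1 ASOs of the study was used. Both cultures received 100 nM ASO before induction and both were differentiated; the labels give no collection day, which the study describes as day 6. The induction medium, given to both for 2 days, held 0.5 mM IBMX, 5 mM dexamethasone as the labels state it, 0.5 mg/L troglitazone and 10 ng/mL insulin, and the maintenance medium that followed is listed with insulin alone. Dexamethasone was thus given to both cultures during induction and is not listed for the days that followed. No culture that never received it was analysed here.

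Glucocorticoids enter cells and bind the receptor, which is held in the cytoplasm by HSP90 chaperones. The bound receptor moves to the nucleus, where it switches on genes at palindromic response elements and dampens inflammatory genes driven by NF-kB and AP-1. In fat cell precursors a synthetic glucocorticoid such as dexamethasone is a standard part of the induction cocktail, acting early with cAMP-raising IBMX. Several of the targets act back on the pathway, and FKBP5 lowers the affinity of the receptor for its ligand.

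Promoter sequences of 3 targets are shown here with letter matches to known kinds of response element. Of these 3, only Sgk1 holds a match to the glucocorticoid response palindrome or its arm. This follows in part from the choice of windows. The Sgk1 and Dusp1 windows were chosen because they hold that palindrome or the cAMP response element, and Mt2 was chosen by name. The sequences are RefSeq windows of GRCm38.p6, the build that the labels name as GRCm38, and 8 of the 10 genes had at least 1 window, with 16 windows in all; Nr3c1 and Zbtb16 had none. Each window was searched on both strands from base 250 to base 11 before a transcription start. Sgk1 is shown from chr10:21993640-21993879 on the plus strand, before 1 of its 6 RefSeq starts, and Dusp1 from chr17:26508520-26508722 on the minus strand. Mt2 is shown from chr8:94172368-94172607 on the plus strand. Capitals mark the glucocorticoid response palindrome and its separate arm, the E-box, the cAMP response element and the metal response core, and bases of protein-coding exons were left out.
Sgk1: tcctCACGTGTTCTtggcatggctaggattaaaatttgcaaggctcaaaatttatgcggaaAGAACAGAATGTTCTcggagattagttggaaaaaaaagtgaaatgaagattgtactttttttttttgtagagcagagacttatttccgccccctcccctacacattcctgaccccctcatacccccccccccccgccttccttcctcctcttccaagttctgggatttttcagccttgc
Dusp1: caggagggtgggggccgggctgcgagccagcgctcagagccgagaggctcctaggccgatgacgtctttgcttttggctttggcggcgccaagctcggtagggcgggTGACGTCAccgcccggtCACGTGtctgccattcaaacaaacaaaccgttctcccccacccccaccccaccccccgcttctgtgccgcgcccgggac
Mt2: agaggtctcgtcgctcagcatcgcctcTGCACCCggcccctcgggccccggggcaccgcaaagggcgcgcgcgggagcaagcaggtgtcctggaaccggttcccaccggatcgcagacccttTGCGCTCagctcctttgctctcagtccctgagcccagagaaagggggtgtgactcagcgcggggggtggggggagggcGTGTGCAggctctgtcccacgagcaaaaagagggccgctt

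In the Sgk1 window, the full palindrome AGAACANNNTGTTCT began 189 bases before the start as AGAACAGAATGTTCT. This exact palindrome occurred in 3 of the 32851 windows of all genes (0.00913%). The single arm AGAACA, which also lies within the palindrome, was in 15.5% of all windows and in windows of Sgk1 and Tsc22d3. The cAMP response element TGACGTCA began 143 bases before the Dusp1 start and was in 1.44% of all windows. The E-box CACGTG, a site of clock proteins, was in 5.69% of all windows and in windows of Dusp1, Fkbp5, Per1 and Sgk1. In Sgk1 it shares bases with a separate copy of the arm. The metal response core TGCACNC or TGCGCNC was in 20.4% of all windows, in 3 places of the Mt2 window and in 1 place each for Mt1, Per1 and Hsd11b1. All 240 bases of the Hsd11b1 window lie in annotated exons of that gene. Counted by window, the arm was in 3 of the 16 searched, the metal response core in 4, the E-box in 4 and the cAMP response element in 1. These are matches of letters only, and which start was in use cannot be read from counts per gene.

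The libraries held 58147539 counts for the control and 61653549 counts for the knockdown. Malat1 itself had 170402 counts in the control and 45396 in the knockdown library, which left 24.7% of the control level after TMM scaling. Differences are given as log2 fold changes of the knockdown over the control library with 95% intervals from the exact binomial distribution of the counts. Each group had 1 library, so no difference has a replicate check. The intervals and the exact binomial test compare the reads of these libraries, not the conditions, and cover counting error only. A gene was called when its adjusted p was under 0.05 and its difference was at least 2-fold. In bulk RNA, fewer cells of a type and less RNA per cell cannot be told apart.

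The glucocorticoid response genes differed modestly between the libraries. Of the 10 genes, 0 were called. Of all 17356 genes tested 6.70% were called, 2.45% higher and 4.24% lower. Of the 8251 genes with a mean of at least 1000 counts, named deeply counted here, 0.751% were called, 0.0121% higher and 0.739% lower. At a 1.5-fold threshold, Hsd11b1 and Fkbp5 were called lower, which is 2 of 10 genes against 7.45% of all genes tested and 2.84% of the deeply counted genes. In either direction this threshold called 12.1% of all genes tested and 4.27% of the deeply counted genes, and 1.43% of the deeply counted genes were called higher. With no fold threshold, all 10 genes had an adjusted p under 0.05 in the exact binomial test, 8 lower and 2 higher, against 48.8% of all genes tested (24.1% lower, 24.6% higher) and 65.5% of the deeply counted genes (30.2% lower, 35.3% higher). Differences beyond counting error were thus common at this depth. The median log2 fold change of the 10 genes was -0.23, beside -0.0031 over all genes tested and 0.013 over the deeply counted genes. The middle range of the deeply counted genes, from the 25th to the 75th percentile, ran from -0.11 to 0.13. By definition such a range leaves out as many genes as it holds. Nr3c1 was the only one of the 10 genes inside it, though Fkbp5 is not itself deeply counted. Over all genes tested the middle range ran from -0.23 to 0.18, and Nr3c1, Per1 and Mt1 were inside it.

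**Figure D1:**
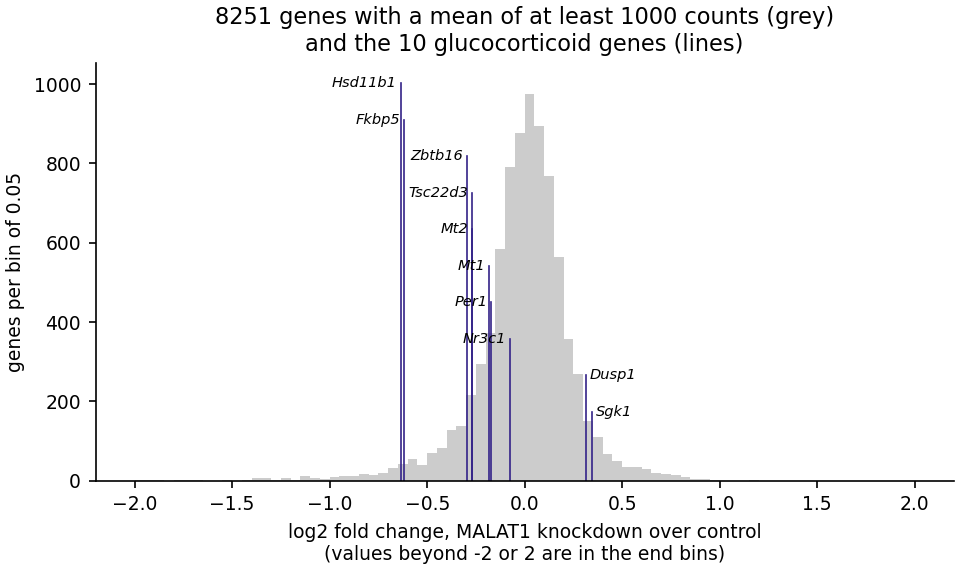
Distribution of the log2 fold change (x axis) over the 8251 genes with a mean of at least 1000 counts, in bins of 0.05 (y axis, genes per bin), with each of the 10 glucocorticoid genes as a line whose height has no meaning. Sgk1 and Dusp1 lie to the right of 0 and the other 8 to the left; Fkbp5, with a mean of 298.5 counts, is drawn but is not among the grey genes.

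The receptor was present at nearly the same level in both libraries. Nr3c1 (chr18:39410545-39519421, minus strand, GENCODE M21 on GRCm38) had 6249 counts in the control and 6384 in the knockdown library, or 108 and 103 CPM. The difference on the log2 scale was -0.076, with a 95% interval of -0.13 to -0.025 and an exact binomial p of 0.00826 after Benjamini-Hochberg adjustment. Scaled by library totals, the value was -0.054 and was no longer past the threshold. Among deeply counted genes, 66.7% differed by at least as much in either direction. The related mineralocorticoid receptor gene Nr3c2, which also binds glucocorticoids, was scarce, with 70 and 122 counts. Nr3c1 made up 98.9% of the counts of the 2 receptors in the control (95% exact interval 98.6 to 99.1) and 98.1% in the knockdown library (97.8 to 98.4).

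Hsd11b1 showed the lowest log2 fold change of the 10 genes. This enzyme of the endoplasmic reticulum regenerates active glucocorticoid from its inactive keto form and is abundant in fat cells. Hsd11b1 (chr1:193221634-193264075, minus strand) had 7404 counts in the control and 5129 in the knockdown library, or 128 and 82.6 CPM. The log2 fold change was -0.64 (95% interval -0.69 to -0.58), which left 64.3% of the control level. Only 3.28% of the deeply counted genes differed by at least as much. H6pd, which supplies the enzyme with its cofactor, had 10176 and 9792 counts and a log2 fold change of -0.16 (95% interval -0.20 to -0.12). Hsd11b2, the enzyme of the opposite reaction, had only 22 and 16 counts, and its interval from -1.59 to 0.43 held 0. Hsd11b1 overlaps Lamb3 on the other strand, with 482 and 243 counts, but their exons share no base. Of the 6 genes tested in a list of 7 for steroid metabolism and export, Hsd11b1 among them, 0 were called and the median log2 fold change was -0.16. The shares called were 6.70% of all genes tested and 0.751% of the deeply counted genes.

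Fkbp5, the feedback co-chaperone of the receptor, was the least abundant of the targets. It had 351 counts in the control and 246 in the knockdown library, or 6.08 and 3.96 CPM. The log2 fold change of Fkbp5 (chr17:28399094-28517527, minus strand) was -0.62, with a wide 95% interval from -0.86 to -0.38. Of all genes tested, 18.8% differed by at least as much. Fkbp4, the co-chaperone that competes with it on the receptor complex, had 6380 and 7515 counts and a log2 fold change of 0.13 (95% interval 0.081 to 0.18). Fkbp5 therefore made up 5.21% of the counts of this pair in the control (95% exact interval 4.70 to 5.77). In the knockdown library it made up 3.17% (2.79 to 3.58). These intervals cover counting error only and do not overlap. The same held for the shares of Nr3c1, Per1, Tsc22d3, Sgk1, Dusp1 and Mt1 within their families.

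**Figure D2:**
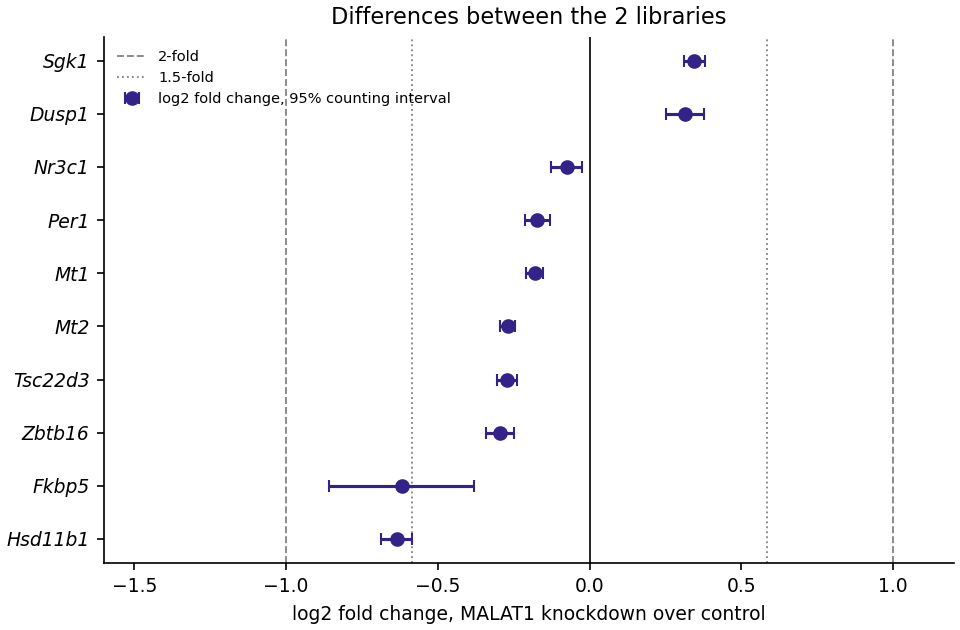
Log2 fold change of each of the 10 genes (points, x axis) with its 95% counting interval (bars); dotted lines mark 1.5-fold and dashed lines 2-fold differences. Sgk1 (0.35) and Dusp1 (0.32) are higher in the knockdown library, Hsd11b1 (-0.64) and Fkbp5 (-0.62) lie past the 1.5-fold line, and no gene reaches the 2-fold line.

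Of the transcriptional regulators among the targets, Tsc22d3, Zbtb16 and Per1 were all lower by less than 1.5-fold. Tsc22d3 (chrX:140539528-140600659, minus strand) encodes GILZ, a leucine zipper protein that relays anti-inflammatory effects of glucocorticoids. It had 16702 counts in the control and 14886 in the knockdown library, a log2 fold change of -0.27 (95% interval -0.30 to -0.24). Zbtb16 (chr9:48654297-48836222, minus strand) encodes the zinc finger factor PLZF. It had 7947 and 6968 counts, with a log2 fold change of -0.30 (95% interval -0.34 to -0.25). Per1 (chr11:69095217-69109960, plus strand) encodes a repressor of the circadian clock and had 9141 and 8736 counts. Its log2 fold change was -0.17 (95% interval -0.21 to -0.13), a size that 35.0% of the deeply counted genes reached. For Tsc22d3 and Zbtb16 that share was 18.7% and 15.9%.

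Relatives of these regulators went in the same direction or differed little. Per3 was lower, with 876 and 660 counts and a log2 fold change of -0.51 (95% interval -0.66 to -0.37), while Per2 had 4764 and 5250 counts and an interval that held 0. The share of Per1 in the counts of the 3 Per genes was 61.8% in the control (95% exact interval 61.05 to 62.6) and 59.6% in the knockdown library (58.9 to 60.4). Tsc22d1, the most abundant of its family, had 42788 and 39648 counts and a log2 fold change of -0.22. Tsc22d3 took 24.7% (24.35 to 25.0) of the counts of its 4 family members in the control and 23.4% (23.1 to 23.8) in the knockdown library.

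Sgk1 and Dusp1 were the 2 targets with higher values in the knockdown library. Sgk1 (chr10:21882184-21999903, plus strand) encodes a kinase that acts on ion transport and cell survival, and its window with the full palindrome is printed above. It had 10760 counts in the control and 14720 in the knockdown library, or 186 and 237 CPM. The log2 fold change of Sgk1 was 0.35 (95% interval 0.31 to 0.38), a size that 12.5% of the deeply counted genes reached. Of its relatives, Sgk3 had 341 and 324 counts and Sgk2 had 4 and 0. Sgk1 thus made up nearly all counts of the 3 Sgk genes in both libraries.

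Dusp1 (chr17:26505590-26562128, minus strand) encodes a phosphatase that switches off MAP kinases, and its window holds the cAMP response element. It had 3610 counts in the control and 4836 in the knockdown library, or 62.6 and 77.8 CPM. The log2 fold change was 0.32 (95% interval 0.25 to 0.38), a size that 14.6% of the deeply counted genes reached. Its relatives went both ways. Dusp4 was called lower, with 984 and 505 counts and a log2 fold change of -1.07 (95% interval -1.23 to -0.91). Dusp2, with 121 and 252 counts, had a log2 fold change of 0.95, and Dusp5, with 630 and 955 counts, one of 0.49. Dusp1 took 39.6% (95% exact interval 38.6 to 40.7) of the counts of the 7 Dusp genes examined in the control and 42.8% (41.9 to 43.7) in the knockdown library. Over 18 relatives of the targets tested, of 20 listed, Dusp4 was the 1 gene called, where 6.70% of all genes tested were, and the median log2 fold change was -0.012, which was 0.011 with library totals. In the annotation 11 exon bases of Dusp1 are shared with Ergic1 on the other strand.

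The metallothioneins, small cysteine-rich proteins that bind zinc and are induced by metals and glucocorticoids, were the most abundant targets and both were slightly lower. Mt1 (chr8:94179082-94180327, plus strand) had 23234 counts in the control and 22058 in the knockdown library, a log2 fold change of -0.18 (95% interval -0.21 to -0.15). Mt2 (chr8:94172664-94173568, plus strand) had 29797 and 26598 counts, with a log2 fold change of -0.27 (95% interval -0.29 to -0.25). Mt1 took 43.8% (95% exact interval 43.4 to 44.2) of their joint counts in the control and 45.3% (44.9 to 45.8) in the knockdown library. Mt1 and Mt2 share no stretch of 50 bases in the GENCODE M21 transcripts. However, the antisense gene Gm45774 covers 432 exon bases of Mt2, and because the strand setting of the counting is not given in the sources used here, reads of the 2 cannot be told apart. Mt4 had 31 and 17 counts and Mt3 had 0 in both libraries, which allows up to 0.0520 CPM in the control and 0.0483 CPM in the knockdown library.

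Compared per transcript length, the order of the levels was led by the metallothioneins in both libraries. Mt2 stood at 1010.5 CPM per kb in the control and 838 in the knockdown library, and Mt1 at 733 and 647. Tsc22d3 followed at 147 and 121 CPM per kb. Hsd11b1 and Sgk1 stood in opposite order in the libraries, with 79.1 against 75.9 CPM per kb in the control and 50.9 against 96.5 in the knockdown library. Per1 and Dusp1 also stood in opposite order, with 33.9 against 31.4 CPM per kb in the control and 30.1 against 39.1 in the knockdown library. Zbtb16 at 26.9 and 21.9, Nr3c1 at 16.8 and 16.0 and Fkbp5 at 1.58 and 1.03 CPM per kb closed the order. Lengths are those of the longest APPRIS principal transcript in GENCODE M21, and the authors' annotation is not given in the sources used here.

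**Figure D3:**
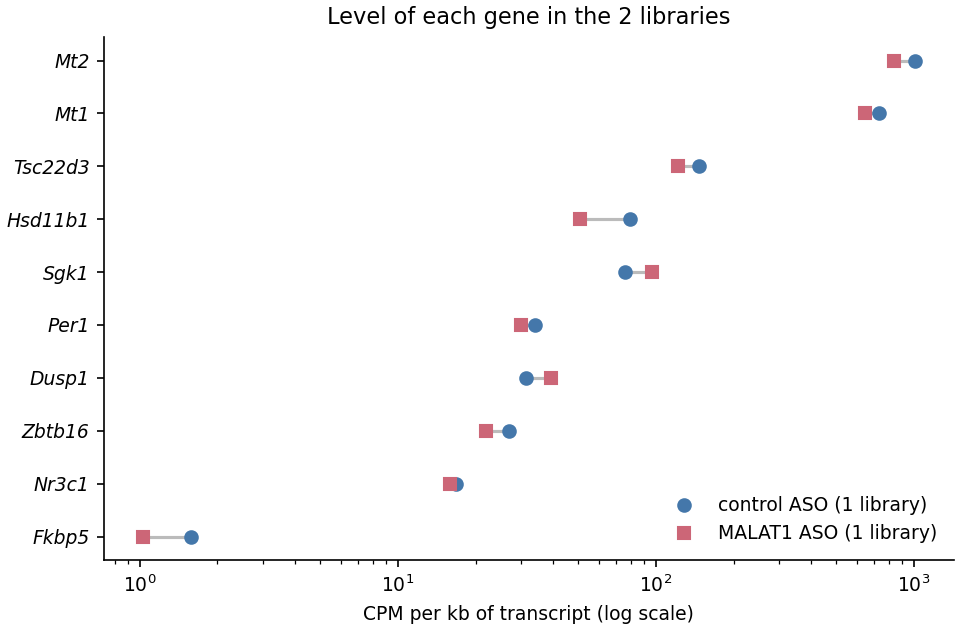
Level of each gene in the control library (circles) and the MALAT1-knockdown library (squares), as CPM per kb of transcript on a log scale (x axis), in order of the control level (y axis); each point is 1 library. Levels span from 1.03 CPM per kb for Fkbp5 to 1010.5 for Mt2, and the squares of Sgk1 and Dusp1 lie to the right of their circles.

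In a list of 12 genes for the receptors, HSP90 and their co-chaperones, which includes Nr3c1 and Fkbp5, 0 were called and the median log2 fold change was 0.13. Beyond counting error, 7 were higher and 4 were lower. That held for 24.6% and 24.1% of all genes tested, and for 35.3% and 30.2% of the deeply counted genes. At the 1.5-fold threshold Nr3c2 was called higher, at 0.69 on the log2 scale (95% interval 0.26 to 1.14), and Fkbp5 lower, which is 2 of 12 genes against 12.1% of all genes tested. Hsp90aa1, the inducible HSP90, had 24523 counts in the control and 31894 in the knockdown library, a log2 fold change of 0.27 (95% interval 0.25 to 0.30). Hsp90ab1, the constitutive form, had 143626 and 152309 counts and a value of -0.022, and Stip1, which hands clients from HSP70 to HSP90, had one of 0.25. Among 12 coregulators of the receptor, 0 were called and the median was 0.070. Of all genes tested 6.70% were called, and of the deeply counted genes 0.751%. Beyond counting error, 7 coregulators were higher and 3 lower, against 24.6% and 24.1% of all genes tested. The shares of the deeply counted genes were 35.3% and 30.2%. The values ran from -0.28 for the coactivator gene Ncoa1 to 0.45 for Ppargc1a, which had only 107 and 158 counts. Abcb1b, a drug efflux pump that can export steroids, had 409 and 707 counts and a log2 fold change of 0.68 (95% interval 0.51 to 0.86).

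Of 24 other genes known to be induced by glucocorticoids 21 were tested, and 2 of these, Lpin1 and Pck1, were called lower and 0 higher, against 4.24% and 2.45% of all genes tested. Beyond counting error, 14 were lower and 6 higher, against 24.1% and 24.6% of all genes tested. Of the deeply counted genes, 30.2% were lower and 35.3% higher. The difference from these shares was not tested. The median log2 fold change was -0.15. Lpin1, a phosphatase of triglyceride synthesis, had 12672 counts in the control and 5709 in the knockdown library, a log2 fold change of -1.26 (95% interval -1.30 to -1.21). Pck1, an enzyme of glyceroneogenesis, had 93 and 12 counts and a log2 fold change of -3.01 (95% interval -4.06 to -2.19). Glul, which makes glutamine, had 114551 and 75819 counts and a log2 fold change of -0.70, and the repressor gene Bcl6 had 4434 and 3072 counts and one of -0.64. In the other direction, Anxa1, an anti-inflammatory protein, had 70754 and 112620 counts and a log2 fold change of 0.56 (95% interval 0.55 to 0.58). Tfcp2l1, a transcription factor gene, had 107 and 207 counts and the highest log2 fold change of the list at 0.84 (95% interval 0.50 to 1.196). Klf9, a direct target of the receptor in many tissues, had a value of -0.33, and Fam107a one of 0.043. Angptl4 had 0 and 1 counts, and its neighbours Rps28, a ribosomal protein gene, with 10 and 10 counts, and Ndufa7, with 4 and 1, were also nearly without counts.

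Of 16 cytokine, matrix and adhesion genes that glucocorticoids are known to repress 14 were tested, with 1 called lower and 0 higher, against 4.24% and 2.45% of all genes tested. The called gene was Nos2, an inducible nitric oxide synthase, with 36 and 10 counts and a value of -1.90 on the log2 scale (95% interval -3.13 to -0.91). The list's median was 0.12, and only 0.030 over the genes with at least 10 counts in each library. Beyond counting error, 7 were higher and 1 was lower, against 24.6% and 24.1% of all genes tested. The shares of the deeply counted genes were 35.3% and 30.2%. The chemokine gene Ccl2 had 4839 counts in the control and 9296 in the knockdown library, a log2 fold change of 0.84 (95% interval 0.79 to 0.89). Ccl7 had 2209 and 4117 counts and a value of 0.79, and Cxcl5, with 99 and 185 counts, also one of 0.79. At the 1.5-fold threshold these 3 were called higher, where 4.68% of all genes tested were. The chemokine gene Cxcl1, with 1812 and 2393 counts, had a value of 0.29. Cxcl12, the most abundant of the list with 145416 and 159867 counts, had a log2 fold change of only 0.030, and the interval of Il6, with 96 and 84 counts, held 0.

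Because Sgk1, Dusp1 and Per1 also respond quickly to serum and cAMP, 20 immediate-early and cAMP-response genes were examined beside them. Of these, 0 were called, against 6.70% of all genes tested and 0.751% of the deeply counted genes. The median log2 fold change of the 20 was -0.036. Beyond counting error, 2 were higher and 7 lower, against 24.6% and 24.1% of all genes tested. For the deeply counted genes, these shares were 35.3% and 30.2%. Fos had 468 and 502 counts and Jun 8075 and 8871, and both intervals held 0. The salt-inducible kinase gene Sik1 was higher, with 7928 and 9617 counts and a log2 fold change of 0.17 (95% interval 0.13 to 0.22). Atf3 had 366 and 220 counts and a log2 fold change of -0.84, and Nr4a1 had 4788 and 4449 counts and one of -0.21. Of 10 genes of the zinc and metal response, among them Mt1 and Mt2, 8 were tested and 0 were called, with a median of -0.070. The shares called among all and deeply counted genes were again 6.70% and 0.751%. Beyond counting error, 2 of the 8 were higher and 4 lower, against 24.6% and 24.1% of all genes tested. Gclc, an enzyme of glutathione synthesis, was the highest of the list at 0.54. Mtf1, the factor that binds metal response elements, had 1812 and 1906 counts with an interval that held 0.

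**Figure D4:**
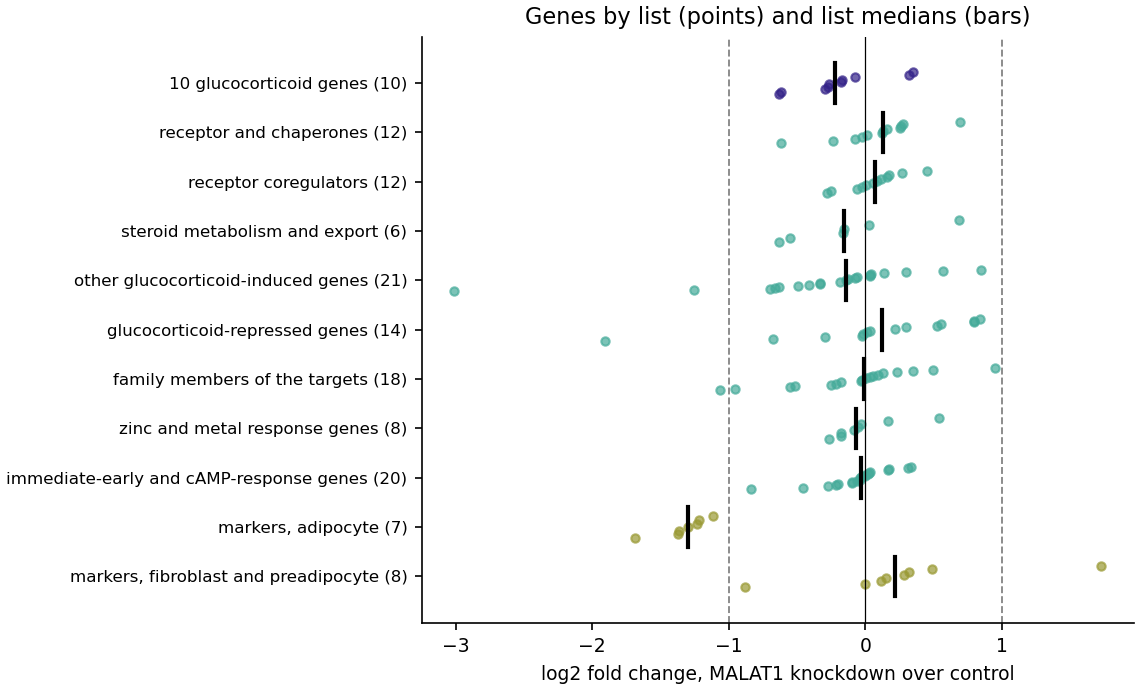
Log2 fold change of each gene tested (points, x axis) in the 10 glucocorticoid genes and in 8 hand-written lists and 2 marker lists (y axis, number of genes tested in brackets), with list medians as bars and 2-fold differences as dashed lines. The 7 adipocyte markers lie to the left of the dashed line at -1 with a median of -1.30, and the 10 glucocorticoid genes lie between -0.64 and 0.35.

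Adipocyte markers differed far more than the glucocorticoid response genes. Of 8 markers 7 were tested, and these 7 were called lower, against 4.24% of all genes tested and 0.739% of the deeply counted genes. Their log2 fold changes ran from -1.69 for Cfd to -1.12 for Lipe, and Lep had 1 and 0 counts. Summed over the list, the level was 5735 CPM in the control and 2281 CPM in the knockdown library. Fibroblast and preadipocyte markers summed to 7103 and 7613 CPM, with a median of 0.22 over 8 genes tested, from -0.88 for Dcn to 1.73 for Cd34, and Dlk1 had 0 counts in both libraries. The part of these differences in the values of Hsd11b1, Fkbp5, Lpin1 and the other targets was not tested. The macrophage markers Ptprc and Adgre1 and the muscle regulator genes Myod1 and Myog were at 0 counts in both libraries. Of the other macrophage markers, Csf1r was called higher with 3 and 13 counts. Cd68, with 172 and 119 counts, went the other way at -0.64 on the log2 scale. The muscle marker Des had 448 and 314 counts and a log2 fold change of -0.62. In summed CPM, control before knockdown, macrophage markers stood at 3.03 and 2.13, skeletal muscle markers at 7.76 and 5.05, osteoblast markers at 1.02 and 1.22, and endothelial markers at 0.451 and 0.435. Chondrocyte markers, mostly Sox9, stood at 120.4 and 172.9 CPM.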

How the data were processed

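RNA-seq was performed on total RNA after rRNA removal with a directional kit, in 1 control and 1 MALAT1-knockdown library. The authors deposited raw read counts per gene symbol. HISAT2 and GRCm38 are named in the submitters' processing notes, while the counting tool, the annotation and the strand setting are not given in the sources used here. The fit kept 17356 genes, those whose counts over both libraries came to 10 or more. Library sizes were scaled by TMM (edgeR 4.0.16, R 4.3.3), and log2 fold changes used a prior count of 0.5. With no replicates to estimate dispersion, a two-sided exact binomial test of the counts was run gene by gene (scipy 1.17.1 under Python 3.11.15), and p-values were adjusted by the Benjamini-Hochberg method across the 17356 genes. Shares carry 95% Clopper-Pearson intervals, and a count of 0 allows up to 3 counts. The 10 genes, the 8 hand-written lists and the cell type markers were chosen with earlier results of these data known. Named genes are the 10 genes, Malat1, in each list up to 4 genes with intervals farthest from 0 and up to 2 with the most counts, and, chosen after their values were seen, Klf9, Fam107a, Tfcp2l1, Sox9, Angptl4, Rps28, Ndufa7, Fkbp4, Per2, Sgk2, Sgk3, Mt3, Mt4, Mtf1, Ppargc1a, Cxcl1, Il6, Fos, Lipe, Lep, Dlk1, Lamb3, Ergic1, Gm45774 and the markers at 0 counts. Some genes that the rule picks are left out for length. With 2 libraries no likeness between gene patterns was computed. Alternatives were other scalings (library totals, DESeq2 1.42.0 size factors, upper quartiles), filters, a prior count of 2, other fold thresholds, and the exact test of edgeR at assumed biological variation (BCV).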

Additional observations from a re-analysis of the deposited data

How the results depend on the processing

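Scaling, filter and prior count moved the log2 fold change of each of the 10 glucocorticoid genes by at most 0.022, and 59 of 60 such values kept their direction and their side of the threshold. The exception was Nr3c1, at -0.054 with library totals, which shift all genes by the same amount. The count of all genes called was 1162, and it was 572 with at least 10 counts in each library, 2105 at 1.5-fold and 8466 with no fold threshold. In the exact test of edgeR it was 667, 117 and 1 when the biological variation between replicates was assumed at 0.1, 0.2 and 0.4. Of the 10 genes, 0 were called at 2-fold, 2 at 1.5-fold and 10 with no fold threshold. With the same test and no fold threshold, chosen after the data were examined, 1 of the 10 was called at 0.1 (Hsd11b1, adjusted p = 0.0383, against 6.22% of all genes tested) and 0 at 0.2 and at 0.4, where 117 genes and 1 gene were called in all. At an unadjusted p under 0.05 these settings gave 2, 0 and 0 of the 10. The share of all genes at that unadjusted cutoff was not computed, so these counts have no background to be read against.

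At 1.5-fold the lists held 2 called genes of 12 tested for the receptor and chaperones and 2 of 6 for steroid metabolism. Other induced genes held 6 of 21, repressed genes 4 of 14, family members 2 of 18 and immediate-early genes 1 of 20. This threshold called 12.1% of all genes tested and 4.27% of the deeply counted genes. With no fold threshold the lists held 11, 3, 20, 8, 10 and 9 in the same order. Coregulators then held 10 of 12 and the metal response 6 of 8, while at 1.5-fold both lists held 0. Of all genes tested 48.8% passed, and of the deeply counted genes 65.5%. The 54 list medians under these scalings, filters and prior count moved by less than the median counting error of their genes. Some small medians still shifted in proportion. The median of the repressed genes was 0.12 and fell to 0.030 with at least 10 counts in each library. With library totals, the median of the family members turned from -0.012 to 0.011, and that of the immediate-early genes went from -0.036 to -0.014. Over all alternatives the family median ran from -0.027 to 0.011. No paired analysis was possible because each group has 1 library, and for the same reason no library could be left out. Differences between cultures were not measured, so no value here separates the knockdown from variation between cultures.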
